A study of Mus musculus with 16 samples.

Results

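Of the 44 collagen genes with a row in the deposited count table, 32 lie outside the cartilage types and type IV of basement membranes, and these 32 of the table's 37991 genes are described here. They were taken by symbol (Col, a number, a, a number), leaving out Col2a1, the 3 Col9a genes, Col11a1, Col11a2 and the 6 Col4a genes, so that Col10a1, the collagen of hypertrophic cartilage, stays by this rule, and so do the multiplexins Col15a1 and Col18a1, which are found at basement membranes. The RNA came from both ventricles, sequenced apart, of C57BL/6 mouse embryos with hypoplastic left heart syndrome (HLHS), a malformation in which the left ventricle and its valves and outflow stay small, and of littermate controls. Stages are given as embryonic days: the litter of E13.5 gave 1 HLHS and 1 control embryo, and the litters of E14.5 and of E17.5 gave 1 HLHS and 2 control embryos each, which makes 3 HLHS and 5 control embryos. Each ventricle of each embryo gave 1 library, so each side had 3 HLHS and 5 control libraries, and litter and stage were 1 variable. The labels give the phenotype of the embryos but no genotype and no agent, and with 1 HLHS embryo per stage a difference at a single stage rests on 1 animal. HLHS replicate 1 was the E13.5 embryo, replicate 2 that of E14.5 and replicate 3 that of E17.5; control replicate 1 was the E13.5 embryo, 2 and 3 were those of E14.5, and 4 and 5 those of E17.5.

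Collagens are proteins of 3 chains wound into a triple helix. The fibrillar chains assemble outside the cell into the fibres that carry tension in the heart wall and valves, and type V collagen is built into type I and III fibres and sets how they start and how thick they become. Type VI forms beaded filaments around cells, FACIT collagens (fibril-associated collagens with interrupted helices) sit on the surface of fibres, and type VIII forms open networks in vessel walls and under endothelium. Multiplexins carry sugar chains and join vessel and muscle basement membranes to the matrix around them, the transmembrane collagens stay in the cell membrane, and type VII forms anchoring fibrils under epithelia. In the developing heart interstitial fibroblasts, which arise largely from the epicardium, and valve mesenchyme make most fibrillar collagen. The 32 genes comprise 8 fibrillar, 6 beaded filament, 6 FACIT, 3 network, 2 multiplexin, 4 transmembrane and 3 anchoring or other genes.

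Col5a3 and Col7a1 were lower in both ventricles of HLHS hearts. Col8a1 and Col8a2, the partner chains of type VIII collagen, passed as higher in the left one, with right estimates of the same sign. Because of these differences, described further on, the sequences just upstream of the 4 genes are shown. Each is the 250 bases before the annotated start of the gene in RefSeq on GRCm38.p6, read on the strand of the gene: chr9:20815068-20815317 on the minus strand for Col5a3, chr9:108953336-108953585 on the plus strand for Col7a1, chr16:57754738-57754987 on the minus strand for Col8a1 and chr4:126286544-126286793 on the plus strand for Col8a2. Capitals mark matches to a GC box (GGGCGG, or CCGCCC on the other strand) and a CCAAT box (CCAAT, or ATTGG on the other strand).
Col5a3: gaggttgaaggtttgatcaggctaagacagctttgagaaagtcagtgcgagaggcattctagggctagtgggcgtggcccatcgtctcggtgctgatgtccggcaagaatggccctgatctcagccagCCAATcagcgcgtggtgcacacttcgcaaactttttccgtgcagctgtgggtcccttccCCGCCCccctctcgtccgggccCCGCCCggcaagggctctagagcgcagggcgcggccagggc
Col7a1: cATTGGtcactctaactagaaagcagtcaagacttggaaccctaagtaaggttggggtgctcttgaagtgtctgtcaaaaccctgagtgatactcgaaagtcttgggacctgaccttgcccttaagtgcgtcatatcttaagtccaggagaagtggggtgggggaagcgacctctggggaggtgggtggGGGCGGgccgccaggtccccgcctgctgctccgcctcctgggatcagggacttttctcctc
Col8a1: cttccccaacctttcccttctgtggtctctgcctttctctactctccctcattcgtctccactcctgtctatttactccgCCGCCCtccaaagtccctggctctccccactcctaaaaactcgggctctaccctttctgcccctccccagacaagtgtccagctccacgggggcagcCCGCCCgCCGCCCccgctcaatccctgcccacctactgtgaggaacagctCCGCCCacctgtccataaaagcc
Col8a2: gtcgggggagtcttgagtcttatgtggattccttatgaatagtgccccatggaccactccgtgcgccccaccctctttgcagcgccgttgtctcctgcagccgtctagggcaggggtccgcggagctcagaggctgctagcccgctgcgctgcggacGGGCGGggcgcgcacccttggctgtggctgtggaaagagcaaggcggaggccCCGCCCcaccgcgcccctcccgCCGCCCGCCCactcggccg
The Col5a3 window held 1 CCAAT box and 2 GC boxes and the Col7a1 window 1 of each. The Col8a1 and Col8a2 windows both held 4 GC boxes, of which the last pair in Col8a2 overlapped, and no CCAAT box. None of the 4 held a TATA box, searched as TATAAA on both strands. Windows were found for 26 of the 32 genes, some with more than 1, which gave 28 windows, and 16 of these held a GC box, 8 a CCAAT box and 4 a TATA box. Over all 32851 windows of the RefSeq table, 32.7% held a GC box, 33.8% a CCAAT box and 12.4% a TATA box. The median GC content was 59% in the collagen windows and 52.4% over all windows, and its part in these shares was not tested. The boxes are matches of letters and not measured binding sites.

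Library totals ran from 17081273 to 28648645 counts, and the 32 genes held 0.438% to 0.787% of them. The tissue label was checked with 10 genes of ventricular muscle, which summed to 23460 to 28577 CPM (read counts scaled to library size with TMM factors) in HLHS left, 20972 to 33198 in control left, 21348 to 29655 in HLHS right and 25954 to 35896 in control right ventricles, so muscle RNA was abundant in every library. Markers of interstitial cells were present as well: 12 fibroblast genes summed to 3230 to 4088 CPM in HLHS left against 3090 to 4090 in control left ventricles. In right ventricles the same list summed to 4822 to 5398 CPM in HLHS against 3578 to 4422 in control hearts, with no overlap. These sums mainly follow Fn1, Vim and Postn, the most abundant genes of the list in every library. In the E13.5 HLHS right ventricle they had 2107, 1428 and 793 of 5220 CPM. Of the 12 genes 2 passed as higher on the right, Fn1 and Fbln2, and none as lower. The control right ventricle of the E13.5 embryo (replicate 1) stood apart: the 32 genes held their lowest share of counts there, 0.438%, and the level was the lowest of all 16 libraries for 8 of the 25 genes that averaged at least 1 CPM. That library also had the lowest summed epicardial markers, 129 CPM against 219 to 267 in HLHS right and up to 258 in other control right ventricles. The E13.5 litter has no other control, and the calls in the right ventricle without that litter are given after the main ones.

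Per kilobase of exon, fibrillar chains of types I and III were the most abundant collagen transcripts, in this order: Col3a1, the only chain of type III, with a mean over the 16 libraries of 173 CPM per kb (101 to 226), Col1a1 with 142 (75.1 to 180) and Col1a2 with 80.4 (41.7 to 105). They were followed by Col18a1 with 68.5 CPM per kb, Col6a1 with 66.5, Col5a1 with 54.5, Col6a2 with 40.4 and Col5a2 with 40.3. The libraries' ranges of neighbours in this order overlapped. The length used is the union of all annotated exons of a gene, which is at least that of any 1 transcript, so the order depends on it. By mean CPM alone Col1a2 (999) was above Col1a1 (934), and Col6a2 (337) was above Col6a1 (291). The fibrillar class took 63.6% to 73.5% of all counts of the 32 genes, and its lowest share was that of the E13.5 control right ventricle.

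A middle tier comprised Col15a1 with 20.8 CPM per kb, Col14a1 with 19.98 and Col16a1 with 12.8, both FACIT collagens, and Col6a3 with 10.3, the large chain of type VI. Below them were Col23a1 with 7.29, Col12a1 with 5.52, Col13a1 with 4.01, Col6a6 with 3.89, Col26a1 with 3.68, Col8a2 with 2.73 and Col27a1 with 2.39 CPM per kb. The least abundant of the 25 genes were Col5a3, Col8a1, Col7a1, Col25a1, Col24a1 and Col20a1, with means between 0.795 and 0.464 CPM per kb. The other 7 genes averaged less than 1 CPM: Col17a1, Col28a1, Col22a1, Col6a5, Col10a1, Col19a1 and Col6a4. The last 3 of these had too few counts to be tested in any comparison. Col6a5, an alternative to Col6a3 in type VI, passed the count filter in the HLHS comparison of right ventricles, in the test between sides and in the stage comparison, and not in the others.

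**Figure D1:**
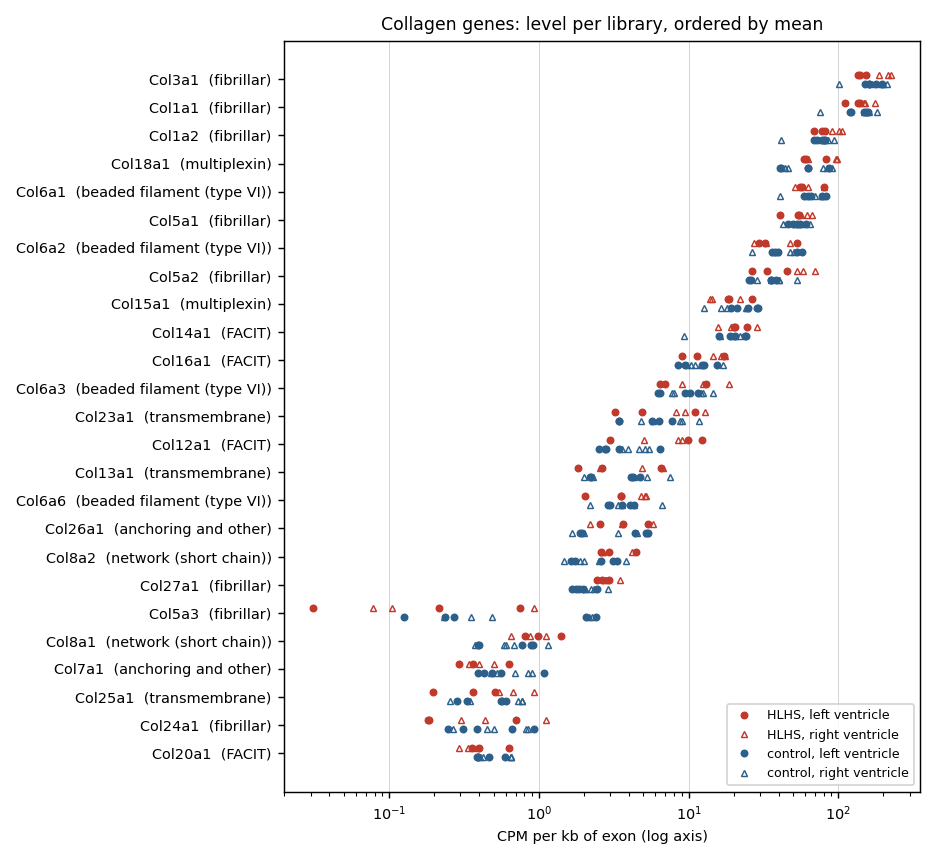
Level of the 25 collagen genes with at least 1 CPM on average, in CPM per kb of exon on a log axis; each point is 1 library, with HLHS in red above control in blue, filled circles for left and open triangles for right ventricles. Col3a1, Col1a1 and Col1a2 lie at the top, and Col5a3 spans the widest range, from 0.0312 to 2.41 CPM per kb.

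In the left ventricle, HLHS hearts differed from littermates in 8 collagen genes, of which Col3a1 alone was among the most abundant. Of 28 tested genes, 4 were higher and 4 lower in HLHS, 28.6% of those tested, where 12.8% of all 15979 genes tested passed, 6.17% higher and 6.61% lower (edgeR's quasi-likelihood test, Benjamini-Hochberg adjusted, threshold 0.05, stage as a term). Higher were both type VIII chains, Col12a1 and Col27a1, and lower were Col5a3, Col7a1, Col28a1 and Col3a1. The log2 change was negative in 20 of the 28 genes and positive in 8, with a median of −0.10 against 0.007 for all genes. As these are bulk samples, fewer cells that make a collagen and less of its RNA per cell cannot be told apart.

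Among the type I and III chains only Col3a1 passed in the left ventricle. Col3a1 had 1378, 1322 and 1514 CPM in HLHS left ventricles, given in order of stage here and for the genes that follow, against 1485 CPM at E13.5, 1578 and 1583 at E14.5 and 1909 and 1748 at E17.5 in controls. The HLHS library was below its littermates in all 3 litters, and Col3a1 fell by 0.22 on the log2 scale (SE 0.06, adjusted p = 0.048, edgeR). This call was lost without any 1 of the 8 libraries except HLHS replicate 1 (log2 changes −0.27 to −0.19, adjusted p up to 0.143). Col1a1 had 921, 724 and 891 CPM in HLHS against 1029, 784 and 803, and 975 and 999 CPM in controls, and its difference missed the threshold (−0.14 ± 0.05 SE, adjusted p = 0.115). Col1a2 had 1019.9, 854 and 973 CPM in HLHS against 995, 861 and 892, and 1018 and 964 CPM in controls, with overlapping groups (−0.01 ± 0.06, adjusted p = 0.909).

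Col5a3, the third and least abundant chain of type V collagen, was much lower in HLHS. It had 0.212, 1.46 and 5.09 CPM in the HLHS left ventricles, against 0.858, 1.85 and 1.61, and 16.4 and 14.2 CPM in controls of the same stages. The ratio of HLHS to littermates was 0.247 (5 counts against 16), 0.847 and 0.334 in order of stage. It was 2.26-fold lower (log2 −1.18 ± 0.27 SE, adjusted p = 0.0218), a call that was lost without control replicate 1, 4 or 5 or HLHS replicate 3 (log2 changes −1.63 to −0.59, adjusted p up to 0.246). The main type V chains did not pass: Col5a1 changed by −0.13 ± 0.07 (adjusted p = 0.22) and Col5a2 by 0.06 ± 0.07 (adjusted p = 0.622). Col27a1, a minor fibrillar chain, had 38.1, 32.1 and 34.6 CPM in HLHS against 31.9, 21.5 and 23.1, and 25.5 and 24.1 CPM in control left ventricles. Every HLHS library was above every control library, and Col27a1 rose 1.35-fold (log2 0.44 ± 0.07, adjusted p = 0.0062), a call that held with each library left out in turn. Col24a1, another minor fibrillar chain, changed by −0.47 ± 0.20 and did not pass (adjusted p = 0.161).

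Type VIII collagen was higher in HLHS left ventricles. Col8a1 had 7.73, 10.95 and 6.38 CPM in HLHS against 6.06, 7.12 and 6.92, and 3.07 and 3.14 CPM in controls. It was above its littermates in every litter and rose 1.63-fold (log2 0.70 ± 0.13 SE, adjusted p = 0.00887), also with each library left out in turn, but the call was lost in the fit of all 16 libraries (0.70 ± 0.25, adjusted p = 0.0765). Its partner Col8a2 had 13.2, 20.2 and 11.7 CPM in HLHS against 11.7, 15.01 and 14.1, and 7.39 and 7.86 CPM in control left ventricles. Col8a2 rose 1.36-fold (log2 0.44 ± 0.10, adjusted p = 0.0186), and this call was lost without control replicate 4 or HLHS replicate 2 or 3 (log2 changes 0.36 to 0.54, adjusted p up to 0.0927). In the HLHS left ventricle of E17.5 both chains were nearer in level to the E14.5 controls than to those of their own stage.

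Among the FACIT collagens the difference lay in Col12a1, which coats type I fibres in tissues under tension. It had 186, 150.3 and 45.2 CPM in HLHS against 98.6, 52.3 and 42.4, and 38.5 and 42.5 CPM in control left ventricles. The excess was large at E13.5 and E14.5, 1.89-fold and 3.17-fold over littermates, and small at E17.5, 1.11-fold. Col12a1 rose 1.96-fold over the 3 litters (log2 0.97 ± 0.22 SE, adjusted p = 0.0207), a call that was lost without control replicate 1 or 2 or HLHS replicate 1 or 2 (log2 changes 0.50 to 1.36, adjusted p up to 0.113). The related Col14a1 changed by 0.12 ± 0.07 and Col16a1 by −0.01 ± 0.06, and neither passed (adjusted p = 0.255 and 0.969).

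The remaining left ventricular calls were in scarce transcripts. Col7a1, the chain of anchoring fibrils, had 6.5, 3.72 and 2.99 CPM in HLHS against 11.2, 5.76 and 5.02, and 4.40 and 4.01 CPM in controls. It was below its littermates in every litter and was 1.51-fold lower (log2 −0.59 ± 0.12 SE, adjusted p = 0.0143), a call that was lost without control replicate 1 or HLHS replicate 1 or 2 (log2 changes −0.64 to −0.51, adjusted p up to 0.0716). Col28a1 had 3, 4 and 7 counts in the HLHS left libraries, which is 0.127, 0.167 and 0.272 CPM, against 0.669 to 1.17 CPM in controls (log2 −2.14 ± 0.38, adjusted p = 0.00814; −2.56 to −1.93 with 1 library left out, and 0.0504 without HLHS replicate 2). None of the type VI, multiplexin or transmembrane genes passed. All 4 tested type VI genes had negative log2 changes, from −0.31 (Col6a6, adjusted p = 0.0513) to −0.01 (Col6a3), and Col15a1 changed by −0.21 ± 0.07 (adjusted p = 0.0681) and Col18a1 by 0.17 ± 0.10 (adjusted p = 0.31).

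Several marker lists moved in the same left ventricles, where 6.17% of all genes tested were higher and 6.61% lower. Of 12 fibroblast genes, 6 were lower and 1 higher in HLHS, and their summed level overlapped between the groups as given above. The 12 endothelial genes summed to 1234 to 1669 CPM in HLHS against 1607 to 1805 CPM in control left ventricles, with 4 lower and none higher. The smooth muscle list summed to 2325 to 3445 CPM in HLHS against 1969 to 2265 in controls, but of its 10 genes 3 were higher, Tagln, Cnn1 and Cspg4, and 3 lower, Myh11, Kcnj8 and Abcc9, with a median log2 change of 0.004. The valve and cushion genes summed to 647 to 1062 CPM in HLHS against 604 to 877 CPM in controls, with 3 of 11 tested genes higher and 1 lower. Of the other lists, 2 of 10 epicardial genes and 7 of 8 tested erythroid genes were higher. Their part in the collagen differences was not tested.

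**Figure D2:**
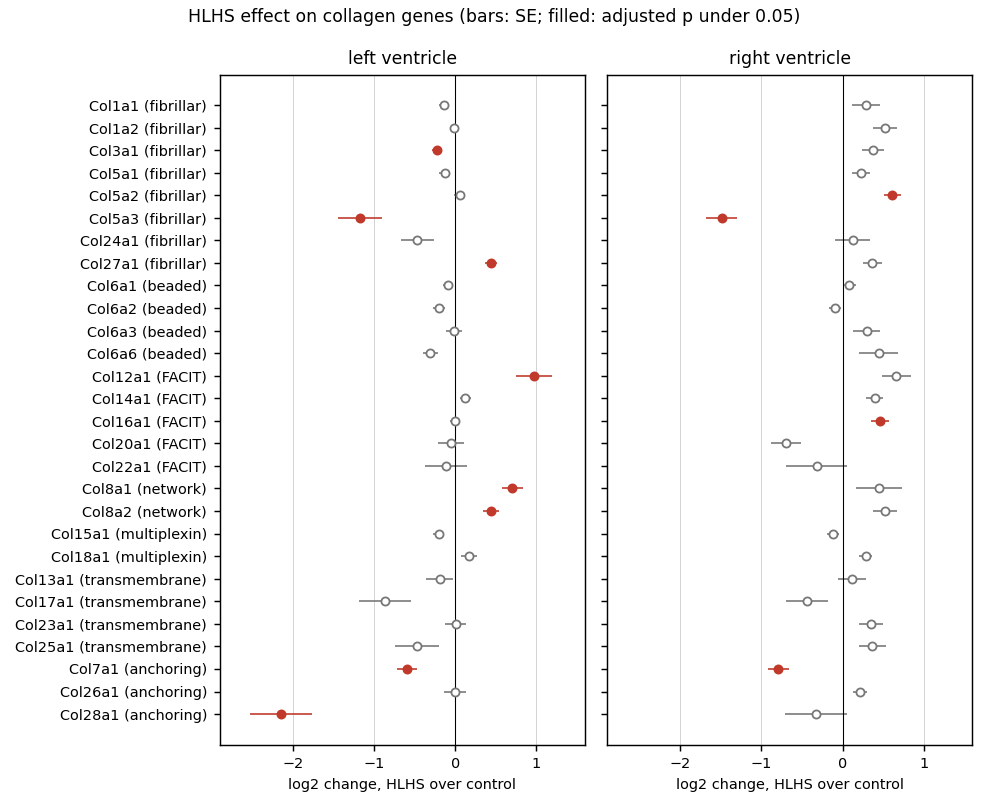
Log2 change of HLHS over control for each of the 28 genes tested in both ventricles, with bars of 1 SE; the left panel is the left ventricle, the right panel the right ventricle, and filled red points passed an adjusted p of 0.05. Col5a3 and Col7a1 lie left of 0 in both panels, and of the 8 fibrillar genes 6 lie left of 0 in the left and 7 right of 0 in the right ventricle.

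In the right ventricle, HLHS hearts had fewer collagen genes past the threshold but most estimates were positive. Of 29 tested genes 2 were higher, Col5a2 and Col16a1, and 2 were lower, Col5a3 and Col7a1, which makes 13.8% where 6.61% of all 16142 genes tested passed, 3.56% higher and 3.05% lower (edgeR's quasi-likelihood test, Benjamini-Hochberg adjusted). The log2 change was positive in 21 genes and negative in 8, with a median of 0.29 against 0.008 for all genes. A further 6 genes had adjusted p-values between 0.05 and 0.07: Col14a1, Col12a1, Col20a1, Col1a2, Col18a1 and Col8a2.

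Col5a2, the second chain of type V collagen, had 559.8, 667 and 506 CPM in HLHS right ventricles, against 387, 509 and 387, and 274 and 340.2 CPM in controls. It was 1.45-fold, 1.49-fold and 1.65-fold above its littermates, in order of stage, and rose 1.53-fold (log2 0.62 ± 0.10 SE, adjusted p = 0.012). The call was lost without control replicate 1 or any 1 HLHS library (log2 changes 0.56 to 0.67, adjusted p up to 0.0648). Col5a1 changed by 0.23 ± 0.11 and did not pass (adjusted p = 0.25). Col5a3 had 0.536, 0.71 and 6.36 CPM (10, 20 and 162 counts) in HLHS against 1.58, 3.32 and 2.40, and 15.3 and 14.7 CPM in control right ventricles. Each HLHS library was below every littermate, and Col5a3 was 2.81-fold lower (log2 −1.49 ± 0.19, adjusted p = 0.00663), also with each library left out in turn. The chains of type V thus moved in opposite directions in the same libraries.

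The large fibrillar transcripts did not pass in the right ventricle, and 1 litter set the size of their estimates. Col1a1 had 990.5, 978 and 1149 CPM in HLHS against 493, 1184 and 1003, and 969 and 1051 CPM in controls (log2 0.29 ± 0.17 SE, adjusted p = 0.35). Its ratio of HLHS to littermates was 2.01, 0.894 and 1.14 in order of stage. Col1a2 had 1134, 1265 and 1310.4 CPM in HLHS against 518, 1162 and 959.6, and 1008 and 1056 CPM in controls (0.53 ± 0.14, adjusted p = 0.0595), and its ratios of 2.19, 1.19 and 1.27 were above 1 in every litter. Col3a1 had 1826, 2094 and 2223 CPM in HLHS against 994, 2062 and 1649.7, and 1901 and 1958 CPM in control right ventricles (0.38 ± 0.13, adjusted p = 0.119), with ratios of 1.84, 1.13 and 1.15. The E13.5 ratios were the highest of the 3 litters for all of these genes, and that litter rests on the control library with the lowest collagen share.

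Among the FACIT genes Col16a1 passed. Col16a1 had 112, 118 and 98.2 CPM in HLHS against 65.7, 114 and 82.2, and 69.8 and 74.2 CPM in control right ventricles. It rose 1.38-fold (log2 0.47 ± 0.11 SE, adjusted p = 0.0395), but the call held in only 1 of the 8 fits with 1 library left out, the one without control replicate 2 (log2 changes 0.36 to 0.57, adjusted p up to 0.172). Col12a1 had 138, 76.5 and 129.5 CPM in HLHS against 71.4, 82.4 and 59.7, and 54.5 and 78.1 CPM in controls, and at E14.5 the HLHS library lay between its littermates (0.66 ± 0.18, adjusted p = 0.0538). Col20a1, a scarce FACIT chain, had 1.5, 1.99 and 1.73 CPM in HLHS against 3.34, 3.36 and 3.37, and 2.19 and 2.09 CPM in controls (−0.69 ± 0.19, adjusted p = 0.0539). All HLHS libraries were below all control libraries for Col20a1, but the difference missed the threshold. Col14a1 changed by 0.40 ± 0.11 (adjusted p = 0.0527), Col8a2 by 0.52 ± 0.15 (adjusted p = 0.064) and Col8a1 by 0.45 ± 0.28 (adjusted p = 0.377). The fibrillar Col27a1, called on the left, changed by 0.37 ± 0.12 (adjusted p = 0.0953).

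Col7a1 was lower in the right ventricle too, with 5.14, 4.12 and 3.49 CPM in HLHS against 9.32, 8.66 and 7.19, and 4.93 and 5.40 CPM in controls. It was 1.73-fold lower (log2 −0.79 ± 0.13 SE, adjusted p = 0.0125), and the call was lost without control replicate 1 or HLHS replicate 1 or 2 (log2 changes −0.91 to −0.70, adjusted p up to 0.0674). Type VI and transmembrane genes did not pass: their log2 changes ran from −0.09 (Col6a2) to 0.71 (Col6a5, adjusted p = 0.402) and from −0.44 (Col17a1) to 0.37 (Col25a1). Col18a1, which releases endostatin, had 684, 672 and 441 CPM in HLHS against 634, 590.2 and 554, and 309 and 326 CPM in controls. It was above its littermates in every litter, and the difference missed the threshold (0.29 ± 0.08, adjusted p = 0.0613). Against their littermates, of the 25 genes of at least 1 CPM, HLHS right ventricles were above in 19 and below in 6 at E13.5. They were above in 10, below in 7 and between in 8 at E14.5, and above in 20 and below in 5 at E17.5. At E13.5 no gene could lie between, as that litter had 1 control. On the right this control was the library with the lowest collagen share. HLHS left ventricles were above in 11 and below in 14 at E13.5. At E14.5 they were above in 4, below in 18 and between in 3. At E17.5 they were above in 10, below in 9 and between in 6. These counts were not made over all genes. In the right ventricle without the E13.5 litter, 19 of the 29 tested genes had a positive and 10 a negative log2 change, with a median of 0.19. Without that litter 2 collagen genes were called in the right ventricle instead of 4, Col5a3 (−1.48 ± 0.21, adjusted p = 0.0337) and Col23a1 (0.60 ± 0.09, adjusted p = 0.0361), which was not called with all litters, and 192 instead of 1067 genes in all. The calls of Col5a2 (0.65 ± 0.13, adjusted p = 0.0589), Col7a1 (−0.76 ± 0.16, adjusted p = 0.0676) and Col16a1 (0.36 ± 0.12, adjusted p = 0.172) were lost, and Col12a1 (0.56 ± 0.22, adjusted p = 0.215), Col14a1 (0.27 ± 0.10, adjusted p = 0.204) and Col1a2 (0.30 ± 0.10, adjusted p = 0.179) moved further from the threshold.

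Some marker lists also differed in the right ventricle, where 3.56% of all genes tested were higher and 3.05% lower. Of the 12 fibroblast genes, whose sums are given above, 2 were higher, Fn1 and Fbln2, and none lower. The 12 valve and cushion genes summed to 1153 to 1544 CPM in HLHS against 602 to 1146 CPM in control right ventricles, with 4 higher (Hapln1, Vcan, Penk and Has2) and none lower. Of 10 genes each, 2 epicardial and 2 macrophage genes were higher, 2 genes of ventricular muscle were lower, Tnni3 and Ryr2, and the smooth muscle list had 2 higher and 1 lower. The cartilage list summed to 43.3 to 189 CPM in HLHS against 12.02 to 73.3 CPM in controls, with 2 of 5 tested genes higher, Col2a1 (1.63 ± 0.24 SE, adjusted p = 0.00782) and Col9a1 (1.80 ± 0.32, adjusted p = 0.0145). Acan, Comp and Cnmd did not pass, and Comp had 2.73, 5.08 and 2.83 CPM in HLHS against 3.04 to 5.12 CPM in controls. Of its other genes, which were too scarce to be tested, Matn1 was at 0 to 0.0812 CPM in these libraries and Snorc was listed at 0. Matn3 had 0.375, 0.497 and 0.235 CPM in HLHS against 0 to 0.176 CPM in control right ventricles. The part of these lists in the collagen differences was not tested.

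**Figure D3:**
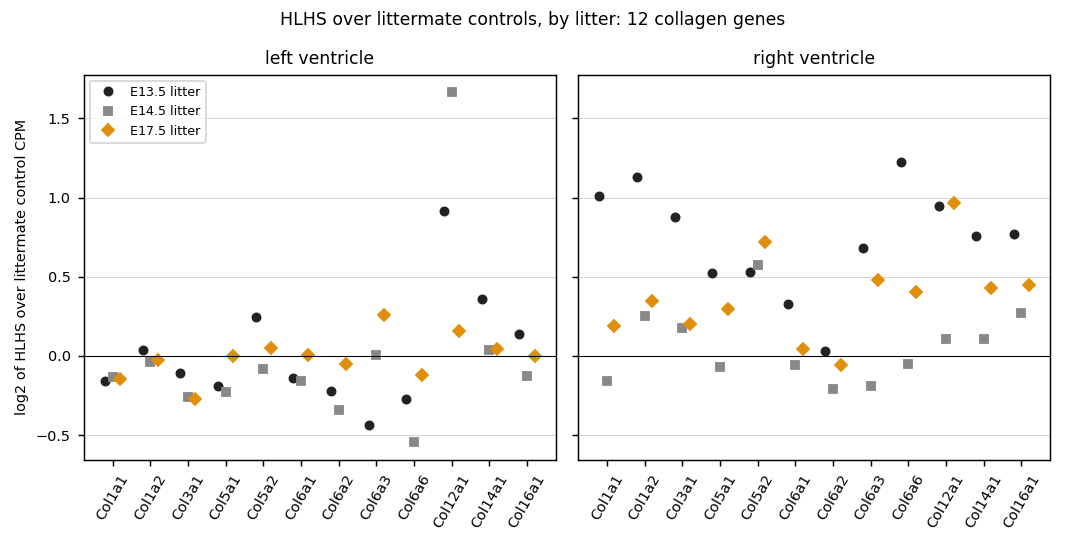
Log2 ratio of the HLHS library to the mean of its littermate controls, for 12 collagen genes, in the left ventricle (left panel) and the right ventricle (right panel); each symbol is 1 litter. In the right ventricle the E13.5 litter gives high ratios, such as 2.19-fold for Col1a2 and 2.34-fold for Col6a6, while Col5a2 is 1.45-fold to 1.65-fold in every litter.

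The HLHS effect on Col3a1 differed between the ventricles. Taken within embryos over all 16 libraries, the left effect minus the right effect was −0.60 ± 0.12 (log2, SE; adjusted p = 0.0384, edgeR's quasi-likelihood test), and Col3a1 was the only one of 29 tested collagen genes to pass, 3.45% where 1.04% of all 16508 genes passed, 0.533% positive and 0.503% negative. Col5a2 (−0.57 ± 0.12, adjusted p = 0.0508), Col16a1 (−0.48 ± 0.11, adjusted p = 0.0593) and Col1a2 (−0.54 ± 0.14, adjusted p = 0.0982) had estimates of the same sign and missed the threshold. The difference was negative in 22 of the 29 genes, with a median of −0.30 against −0.007 for all genes. For Col5a3 (0.22 ± 0.34) and Col7a1 (0.20 ± 0.17), which were lower in both ventricles, no difference between the sides passed (adjusted p = 0.893 and 0.749). Nor did it pass for the genes called higher on the left. These were Col8a1 (0.27 ± 0.25, adjusted p = 0.788), Col8a2 (−0.08 ± 0.17, adjusted p = 0.925), Col12a1 (0.27 ± 0.33, adjusted p = 0.849) and Col27a1 (0.06 ± 0.15, adjusted p = 0.931). The Col3a1 call was lost without any 1 embryo except control replicate 2 or HLHS replicate 3 (log2 −0.69 to −0.46). It was also lost without the E13.5 litter and without the terms for side by stage.

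In control hearts 1 of 28 tested collagen genes passed between the ventricles, 3.57% where 6.10% of all 16238 genes passed, 2.09% higher and 4.01% lower on the left (left versus right within embryos, edgeR's quasi-likelihood test). This was Col23a1, a transmembrane collagen, with 44.5, 36.5, 32.6, 19.6 and 19.7 CPM in the left and 67.6, 51.7, 50.4, 27.6 and 33.0 CPM in the right ventricles of control embryos 1 to 5. The left ventricle was lower in all 5 embryos, 1.51-fold (log2 −0.59 ± 0.05 SE, adjusted p = 0.00027), also with each embryo left out in turn. Col5a2 (−0.29 ± 0.08, adjusted p = 0.0518), Col15a1 (0.38 ± 0.11, adjusted p = 0.062) and Col18a1 (−0.22 ± 0.06, adjusted p = 0.0635) came next. Col1a1, Col1a2 and Col3a1 differed by 0.01 ± 0.18, 0.05 ± 0.15 and −0.01 ± 0.11, and the low right library of control embryo 1 contributed to these spreads.

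In HLHS hearts 5 of 28 tested genes differed between the sides, 17.9% where 4.04% of all 15771 genes passed, and 4 of them were lower and 1 higher on the left (2.89% and 1.15% of all genes; edgeR's quasi-likelihood test). Col5a2 had 437, 322 and 256 CPM in the left and 559.8, 667 and 506 CPM in the right ventricles, in order of stage (log2 −0.78 ± 0.14 SE, adjusted p = 0.0184). Col3a1 had 1378, 1322 and 1514 CPM in the left and 1826, 2094 and 2223 CPM in the right (−0.52 ± 0.12, adjusted p = 0.0422). Both were lower on the left in all 3 embryos. The type VI chains Col6a3 and Col6a6 were also lower on the left: Col6a3 (−0.59 ± 0.10, adjusted p = 0.013) had 83.7, 76.5 and 156 CPM there and 149, 107 and 222 CPM on the right, and Col6a6 (−0.76 ± 0.14, adjusted p = 0.02) had 32.7, 18.5 and 32.2 CPM there and 46.8, 44.3 and 48.0 CPM on the right. Col15a1, a multiplexin of vessel and muscle basement membranes, was higher on the left, with 118, 117 and 169 CPM there and 88.1, 90.5 and 140.4 CPM on the right (0.37 ± 0.08, adjusted p = 0.0376). All 8 fibrillar genes had negative estimates, down to −0.84 for Col24a1 (adjusted p = 0.0641).

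Of these 5 calls, Col6a3 and Col6a6 held with each embryo left out. Col5a2 was lost without HLHS replicate 2 (adjusted p 0.0886), Col3a1 without replicate 2 or 3 (up to 0.206) and Col15a1 without replicate 1 or 2 (up to 0.188). In the same comparison 2.89% of all genes tested were lower on the left, against 4.01% in control hearts. Of the marker lists, 7 of 12 fibroblast genes and 9 of 12 valve and cushion genes were lower on the left, against 1 and 9 in control hearts. Their part in the collagen differences was not tested, and the 2 side comparisons were not set against each other in any test other than that of the HLHS effect.

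The count of calls was highest between stages, but each stage was a single litter, so stage and litter cannot be told apart. The spread tested was that between littermates. At E17.5 against E14.5 in controls, with the counts of both ventricles summed per embryo and 2 embryos at each stage, 18 of 29 tested genes passed, 7 higher and 11 lower at E17.5. This is 62.1%, where 30.0% of all 16823 genes passed, 15.8% higher and 14.1% lower (edgeR's quasi-likelihood test, Benjamini-Hochberg adjusted). The largest rise was that of Col5a3, and all 4 transmembrane and both tested network genes fell. Type I and III chains did not pass: Col1a1, Col1a2 and Col3a1 changed by 0.09 ± 0.09, 0.07 ± 0.09 and 0.14 ± 0.09 (log2, SE; adjusted p = 0.443, 0.552 and 0.301).

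Col5a3 had 16.4 and 14.2 CPM in the left and 15.3 and 14.7 CPM in the right control ventricles at E17.5, against 1.85 and 1.61 CPM in the left and 3.32 and 2.40 CPM in the right at E14.5. The stages did not overlap. It rose 6.69-fold (log2 2.74 ± 0.15 SE, adjusted p = 0.000381). Col24a1 rose 1.98-fold (0.99 ± 0.14, adjusted p = 0.00378). Col5a2 fell (−0.50 ± 0.10, adjusted p = 0.012), so the type V chains moved in opposite directions with stage as well, while Col5a1 did not pass (0.03 ± 0.08, adjusted p = 0.78). In HLHS hearts Col5a3 was also highest at E17.5, with 5.09 CPM in the left and 6.36 CPM in the right ventricle, both below every control library of that stage.

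All 3 chains of the common type VI trimer rose: Col6a1 by 0.31 ± 0.07 (adjusted p = 0.018), Col6a2 by 0.47 ± 0.08 (adjusted p = 0.00615) and Col6a3 by 0.56 ± 0.13 (adjusted p = 0.0177), while Col6a6 (−0.03 ± 0.18) and Col6a5 (−0.88 ± 0.44) did not pass. Col15a1 rose by 0.51 ± 0.05 (adjusted p = 0.00167) and Col14a1 by 0.27 ± 0.05 (adjusted p = 0.0114). Against this, Col18a1, the other multiplexin, fell by 0.73 (SE 0.07, adjusted p = 0.00152), with 286, 289.8, 309 and 326 CPM at E17.5 and 439, 441, 590.2 and 554 CPM at E14.5, left before right ventricles. The multiplexins thus changed in opposite directions.

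The 4 transmembrane collagens fell together: Col17a1 by 1.13 (SE 0.25), Col25a1 by 1.12 (SE 0.14), Col13a1 by 1.04 (SE 0.09) and Col23a1 by 0.75 (SE 0.09), with adjusted p-values from 0.00124 to 0.0169. Type VIII fell in both chains, Col8a1 by 0.93 (SE 0.21, adjusted p = 0.0186) and Col8a2 by 0.82 (SE 0.13, adjusted p = 0.00545). Col26a1 had the largest fall, 1.36 (SE 0.08, adjusted p = 0.000381), with 15.5, 16.0, 13.7 and 16.3 CPM at E17.5 and 36.1, 42.4, 42.9 and 37.1 CPM at E14.5. Col7a1 (−0.48 ± 0.13, adjusted p = 0.0343) and Col16a1 (−0.45 ± 0.09, adjusted p = 0.0124) fell as well. Single embryos decided 5 of the 18 calls: Col6a1 was lost without control replicate 2, 3 or 4 (adjusted p up to 0.0775), Col14a1 without 3 (0.08), Col17a1 without 5 (0.0782), Col7a1 without 2, 4 or 5 (up to 0.154) and Col16a1 without 2 (0.0541). With the right ventricle libraries alone Col8a1 (−0.70 ± 0.36, adjusted p = 0.197) and Col6a3 (0.38 ± 0.19, adjusted p = 0.182) were lost, as were Col6a1, Col14a1, Col16a1 and Col17a1. In the right ventricle Col8a1 had 2.94 and 5.36 CPM at E17.5 against 8.96 and 4.59 CPM at E14.5, which overlap. Col7a1 was lost with the left ventricle libraries alone, and DESeq2 lost Col17a1 and Col7a1. In the stage comparison 15.8% of all genes tested were higher and 14.1% lower at E17.5. Of 12 fibroblast genes 7 were higher and 1 lower, and of 9 erythroid genes 5 were lower. Their part in the collagen changes was not tested.

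**Figure D4:**
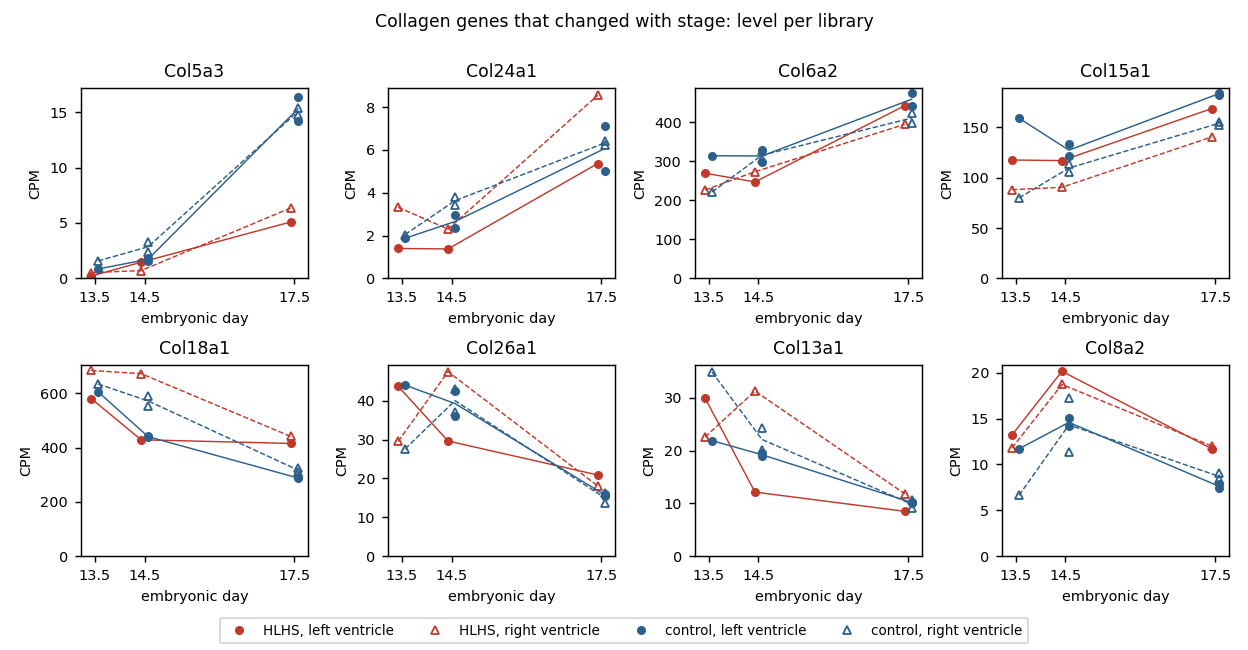
CPM of 8 collagen genes that differed at E17.5 from E14.5 in controls, plotted by embryonic day; points are libraries and lines join stage means, with HLHS in red, control in blue, filled circles and solid lines for left and open triangles and dashed lines for right ventricles. Col5a3 climbs in controls to 14.2 to 16.4 CPM at E17.5 and reaches 5.09 and 6.36 CPM in HLHS, and Col26a1, Col13a1, Col18a1 and Col8a2 decline in controls after E14.5.

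Chains that share a trimer were also compared as ratios of their counts within a library, which no scaling factor touches. The ratio of Col1a1 to Col1a2 was 0.903, 0.848 and 0.916 in HLHS left ventricles, against 1.03, 0.910 and 0.901, and 0.957 and 1.04 in controls. In right ventricles it was 0.874, 0.773 and 0.877 in HLHS, against 0.952, 1.02 and 1.05, and 0.961 and 0.995 in controls. It was below the littermates' mean in each of 3 litters on both sides, by −0.14 ± 0.05 on the left and −0.23 ± 0.16 on the right (mean log2 difference, SD over 3 litters). The exact two-sided permutation test, exchanging the phenotype within litters, gave p = 0.0556 on each side, the smallest that 18 assignments allow, and 0.0926 after Benjamini-Hochberg adjustment over 10 such tests, so this design cannot reach 0.05.

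The ratio of Col6a2 to Col6a1 was likewise lower in HLHS in 3 of 3 litters on both sides (−0.11 ± 0.07 left, −0.18 ± 0.10 right, exact permutation p = 0.0556 each). The ratio of Col5a2 to Col5a1 was higher in 3 of 3 litters on both sides (0.21 ± 0.20 left, exact permutation p = 0.111; 0.36 ± 0.33 right, exact permutation p = 0.0556). For Col8a2 to Col8a1 it was lower on the left (−0.26 ± 0.14, exact permutation p = 0.0556) and mixed on the right (0.12 ± 0.71, exact permutation p = 0.833). The ratio of Col6a3 to Col6a1 was mixed on both sides, with exact permutation p = 0.833 on the left and 0.278 on the right.

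**Figure D5:**
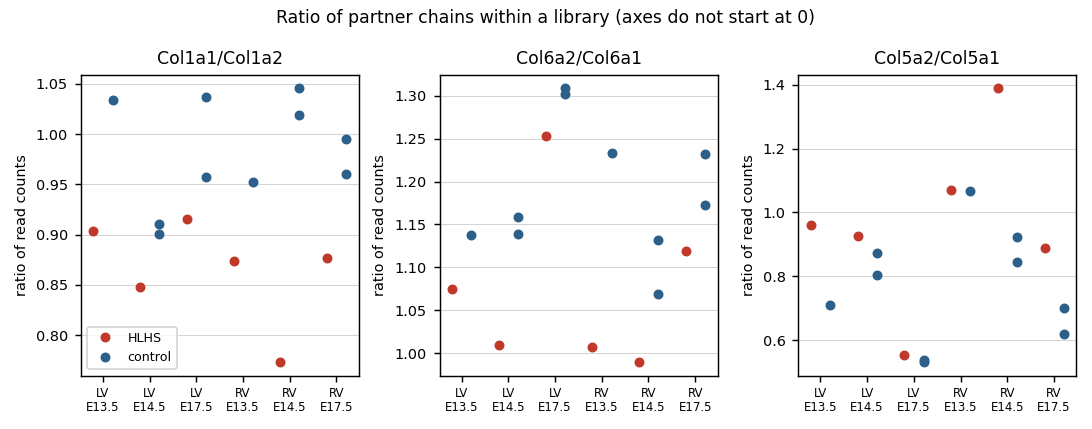
Ratio of read counts of partner chains in each library, for Col1a1 over Col1a2, Col6a2 over Col6a1 and Col5a2 over Col5a1, by ventricle and embryonic day, with HLHS in red left of control in blue; the axes do not start at 0. The Col1a1 to Col1a2 ratio is 0.773 to 0.916 in the 6 HLHS libraries and 0.901 to 1.05 in the 10 control libraries.

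Enzymes that modify and cross-link collagen chains included many genes that were higher in HLHS. Of 30 tested genes of chain processing and cross-linking, 8 were higher and 1 lower in the left ventricle and 10 higher and none lower in the right. Of all genes tested, 6.17% were higher and 6.61% lower on the left, and 3.56% higher and 3.05% lower on the right, against 26.7% and 3.33% of this list on the left and 33.3% and 0% on the right. In the left ventricle Loxl2, a lysyl oxidase, rose by 0.80 ± 0.11 (adjusted p = 0.00269), P3h2, a prolyl 3-hydroxylase, by 0.80 ± 0.11 (adjusted p = 0.00321) and the lysyl hydroxylases Plod3 and Plod2 by 0.38 ± 0.06 and 0.57 ± 0.10. In the right ventricle P3h1 rose by 0.46 ± 0.06 and Plod2 by 0.55 ± 0.07 (both adjusted p = 0.00663), P4ha3, a prolyl 4-hydroxylase subunit, by 0.45 ± 0.08 (adjusted p = 0.0168) and Fkbp10, a collagen chaperone, by 0.31 ± 0.06 (adjusted p = 0.0174). The 1 gene lower on the left was P4ha3 (−0.39 ± 0.09, adjusted p = 0.0238), whose HLHS effect differed between the sides (left minus right −0.84 ± 0.11, adjusted p = 0.0119). The median log2 change of the list was 0.15 on the left and 0.28 on the right. On the left the list summed to 4464 CPM in HLHS against 3598 in the control at E13.5, and to 4629 against 3200 and 3241 at E14.5. At E17.5 the left sums were close, 3312 CPM in HLHS against 3304 and 3174. On the right HLHS sums were higher in each litter: 4538 against 3641, 4187 against 3604 and 3551, and 3999 against 3617 and 3542 CPM.

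Of 24 tested genes of proteins that bind fibrils, 8 were higher and 3 lower in HLHS left ventricles and 9 higher and none lower in HLHS right ventricles. The higher genes made 33.3% of the list on the left and 37.5% on the right, above the shares of all genes just given, and the lower ones 12.5% on the left. Thbs1 (thrombospondin) rose by 1.26 ± 0.10 on the left and 1.34 ± 0.23 on the right, and Bgn (biglycan) by 0.66 ± 0.11 and 0.77 ± 0.13. Mfap5, of the microfibrils, fell on the left (−1.07 ± 0.15, adjusted p = 0.00302), and Tgfbi and Fmod (fibromodulin) rose on the right (0.99 ± 0.09 and 0.94 ± 0.12). Of collagen receptors and turnover genes, 2 of 25 were higher and 4 lower on the left, and 3 of 26 higher and none lower on the right. Higher genes made 8% of this list on the left, near the 6.17% of all genes, and 11.5% on the right, and lower genes 16% on the left. Antxr1, a collagen-binding receptor, fell on the left (−0.70 ± 0.07, adjusted p = 0.000847), as did Ctsk and Ddr2, and the integrin Itga1 rose there. On the right Mmp2, Itga11 and Mrc2 rose. Among 23 tested regulators of collagen transcription, Tgfb2 and Tgfb3 were higher in both ventricles (0.88 ± 0.06 and 0.62 ± 0.09 left, 0.67 ± 0.09 and 0.63 ± 0.10 right), with 5 higher and 2 lower in all on the left and 2 higher on the right, which made 21.7% and 8.7% of the list on the left and 8.7% higher on the right. The lists were measured in the same libraries as the collagen genes and are not independent of them.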

How the data were processed

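Per the labels, RNA of both ventricles of 8 embryos was sequenced with a TruSeq kit that selects polyadenylated RNA. The deposited table holds whole-number read counts per gene that the authors made; the submitters' processing notes name the build mm9 and, as tools, edgeR 3.4.2, HTSeq 0.5.4p5, TopHat2 2.0.9 and Picard. The annotation, strand use and removal of duplicates were not stated there, and reads of antisense or overlapping genes cannot be told apart. Symbols were found for 32919 of 37991 genes (86.65%). The authors' own comparisons were not used.

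The tests used edgeR 4.0.16 under R 4.3.3 (TMM factors; filterByExpr, min.count 10, min.total.count 15; glmQLFit and glmQLFTest) on these counts, adjusted by Benjamini-Hochberg over all genes tested, threshold 0.05. The standard error is the log2 change divided by the square root of F. HLHS was compared with control per ventricle with stage as a term. The side comparisons and the test of the HLHS effect between sides had the embryo as a block, since per the titles both ventricles of a number come from 1 embryo; left and right differences between the 2 controls of a litter correlated with r across genes of 0.333 at E14.5 and 0.371 at E17.5. The fits of phenotype have no block other than litter. Levels are CPM over TMM-scaled totals, and per kb they use the union length of a gene's GENCODE exons on GRCm38. Gene coordinates are thus given only for RefSeq's windows. On each side the 2 controls of a litter were compared at E14.5 and E17.5. No such pair agreed within sampling noise (lowest chi-square per degree of freedom 7.51), and other pairs were not compared. In the HLHS comparisons the p-values rest on the spread between littermates and on how the HLHS effect differed between litters. With the embryo as a block they rest on the spread of left-right differences between embryos, and between stages on that between littermates. Each fit was tested on simulated data. The alternatives were DESeq2 1.42.0, its size factors, limma 3.58.1 (voom), 2 other filters, other sets of libraries, no block and 1 embryo left out.

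The 32 genes and the lists were chosen with earlier results of these data known. By rule, each gene with at least 1 CPM on average is named, others by range or when called, and up to 4 called genes with the smallest p from each pathway list. Mia3 was listed at 0, and Ctgf and Ahsp had no row under those symbols. Ctgf is an older symbol of Ccn2, which is on the same list and was measured, at 42.0 to 251 CPM.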

Additional observations from a re-analysis of the deposited data

Results flagged for a closer look

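Col12a1 in the left ventricle of the E13.5 control embryo (replicate 1) was at 98.65 CPM, far above the other 4 control left libraries, which lay between 38.5 and 52.3 CPM. Col7a1 in the same library was at 11.16 CPM, against 4.01 to 5.76 CPM in the other 4. It was the only control of its stage, and stage and library cannot be told apart there. These were 2 flags among 50 groups of 5 libraries examined, and chance alone flags about 1 in 20 such groups.

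The HLHS effect on Col3a1 differed between the ventricles, with a left minus right difference of −0.6013 on the log2 scale (adjusted p = 0.0384, edgeR's quasi-likelihood test). Col3a1 was below the littermates in 3 of 3 left ventricles and above them in 3 of 3 right ventricles. On the right at E13.5 the only control was the library with the lowest collagen share, at 994 CPM. Without the E13.5 litter the right effect was 0.19 ± 0.11 (log2, SE, adjusted p = 0.417, edgeR's quasi-likelihood test). The call of the difference between the ventricles was then lost as well.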

How the results depend on the processing

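Of 37 called values of single collagen genes, none turned its direction in 467 recomputations over the alternatives; 372 kept the call and 95 lost it. Of 134 values that were not called, 126 of 1817 recomputations had the other sign and 107 passed the threshold. The cause of the changes that follow was not tested.

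In the left ventricle the HLHS comparison called 1 gene and 0 collagen genes with no replicate block, that is without stage, against 2043 and 8; with 1 library left out it called 845 to 2309 genes and 3 to 8 collagen genes. In the right ventricle, against 1067 genes and 4 collagen genes, DESeq2 called 10 collagen genes, no count filter gave 1720 and 13, all 16 libraries in 1 fit 1662 and 10, the E13.5 litter left out 192 and 2, no replicate block 0 and 0, and 1 library left out 195 to 1518 and 2 to 12. At an unadjusted p under 0.05 in edgeR's test, 14 of 28 tested collagen genes passed in the left and 14 of 29 in the right ventricle. The share of all genes at that threshold was not counted, so these numbers have no baseline.

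For the HLHS effect, left minus right (171 genes, 1 collagen gene), DESeq2 size factors gave 2 collagen genes, DESeq2 267 genes and 4, no count filter 356 and 5, no replicate block 24 and 0, the E13.5 litter left out 69 genes, the side by stage terms left out 3 and 0, and 1 embryo left out 60 to 271 and 0 to 6. For left versus right in control hearts (990 and 1), DESeq2 gave 5 collagen genes, no count filter 1570 and 7, no replicate block 32 and 0, the E13.5 litter left out 4 collagen genes, and 1 embryo left out 486 to 883 genes and 1 to 4. In HLHS hearts (637 and 5) DESeq2 gave 8 collagen genes, no count filter 1309 and 10, no replicate block 4 and 0, the E13.5 litter left out 9 collagen genes, and 1 embryo left out 270 to 1117 genes and 2 to 9. Between stages (5043 and 18) the right ventricle libraries alone gave 2905 genes, and 1 embryo left out 3488 to 4531 genes and 16 to 17 collagen genes.

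Leaving out the E13.5 litter and the side by stage terms were alternatives chosen after seeing the data. Between stages, 1 embryo left out leaves a single embryo at a stage, which is assumed to vary like those of the other stage. In the HLHS comparisons and that of the HLHS effect between sides, leaving out either E13.5 embryo leaves the other alone in its stage. The stage terms then fit it, so it adds nothing to the estimate. Such fits nearly repeat the one without the E13.5 litter, and in the side comparisons leaving out the E13.5 embryo is that fit. The recomputations counted above are therefore not all separate checks. Without the block the embryos' stages add to the spread. With 3 HLHS embryos, and counts under 10 for scarce genes such as Col28a1, small differences were not detectable at this depth.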
